A study of Mus musculus with 8 samples.

Results

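Cycling macrophages and monocytes are the liver cells in which transcripts of cell division were found together with the receptor of the mononuclear phagocytes. They were chosen by raw UMI counts (unique molecular identifiers, each standing for 1 captured transcript): at least 1 UMI of Top2a, at least 3 UMIs of Top2a and Mki67 together, at least 1 UMI of Csf1r, and no UMI of Siglech, Xcr1, Clec9a, Cd3e or Cd79a, which mark plasmacytoid dendritic cells, type 1 dendritic cells, T cells and B cells. Of 80474 cells that passed the limits of more than 500 genes and under 25% of UMIs from mitochondrial genes, 1395 were members (1.733%). They made up 3.505% of the 39795 cells that met the limits on Csf1r and on the excluded genes, called gated cells here. The levels of Top2a, Mki67 and Csf1r follow from that choice and are given as a description.

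The livers came from 8 C57BL/6 mice of wild-type genotype. The 2 control mice had a normal diet and drinking water, the 3 HFD+F+CCl4 mice a high-fat diet, fructose solution and intraperitoneal carbon tetrachloride (CCl4), and the 3 WD+F+CCl4 mice a western diet with fructose solution and CCl4. CCl4, a hepatotoxin used to speed up fibrosis, was injected 1 time a week for 16 weeks, so that both NASH models shared the fructose and the CCl4 and differed in the diet. Each mouse gave 1 droplet library of dissociated cells, from which red cells were lysed and dead cells removed. The control mice received neither the fructose, the CCl4 nor a diet rich in fat, so these agents cannot be told apart in a comparison with control. The labels give no age or sex.

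Resident Kupffer cells renew themselves by division within the liver, whereas monocytes are made in the bone marrow from dividing progenitors and reach the liver through the blood. Csf1r, the receptor for CSF1 and IL-34, is needed for the survival and growth of most macrophages. In a dividing cell, E2F factors switch on the genes of DNA replication at the start of S phase, and a later set for mitosis comes on in G2 and M phase. Top2a untangles chromosomes, Mki67 coats them in mitosis, and Birc5 is a subunit of the complex that steers their attachment to the spindle.

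Library depth ranged from 6135827 UMIs in control 2 to 64855024 in WD+F+CCl4 3, and control 2 was the shallowest library by far. In the 6 NASH mice the median UMI count of a member was 9786.5, 11260 and 11671.5 in HFD+F+CCl4 1 to 3 and 14759, 8902.5 and 12318 in WD+F+CCl4 1 to 3. Gated cells with no UMI of Top2a or Mki67, called non-cycling cells here, had medians of 3477, 4592 and 3916 and of 5624, 4449 and 5039 UMIs in the same order. In control 1 the medians were 9035.5 and 4233 UMIs, and in control 2 they were 919 for the single member and 959 for non-cycling cells, far below the other mice, which bears on its share of members below. In each NASH mouse the members were the deeper cells, and a deeper cell more readily passes a limit on raw UMIs. Levels below are therefore CPM, the UMIs of a gene as counts per 1000000 UMIs summed over the members or the non-cycling cells of a mouse. Among the kept cells, 732 barcodes occurred in more than 1 library, and 37 members carried such a barcode. Of the members, 15.34% were among the cells with the highest Scrublet doublet scores, compared with 8.471% of the gated cells. The part of shared barcodes and of doublets in the results was not tested beyond the alternatives named below.

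The members near the limit were few. Exactly 3 UMIs of Top2a and Mki67 were found in 141 members, 4 in 96 and at least 5 in 1158. Just outside the limit were 328 gated cells with 2 UMIs of which at least 1 was Top2a, and 130 gated cells with 3 or more UMIs but none of Top2a. The members with 3 UMIs had a median of 7985 UMIs, with 10 UMIs of a list of S phase genes and 17 of a list of G2/M genes. The 328 cells with 2 UMIs had a median of 7627 UMIs, 6.5 of them in S phase genes and 10 in G2/M genes. Members with at least 5 UMIs had 43 and 117.5 UMIs of these lists, and non-cycling cells 2 and 4. A further 1264 cells met the limits on Top2a and Mki67 but had no UMI of Csf1r.

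Compared with control mice, members made up a higher share of the gated cells in each of the 6 NASH mice, although the difference did not pass the test. Control 1 held 6 members among 558 gated cells (1.075%, exact 95% binomial interval 0.3956 to 2.326%) and control 2 held 1 among 211 (0.4739%, 0.012 to 2.612%). HFD+F+CCl4 1 to 3 held 278 of 7328 (3.794%, 3.368 to 4.257%), 265 of 5598 (4.734%, 4.192 to 5.323%) and 142 of 6866 (2.068%, 1.745 to 2.433%). WD+F+CCl4 1 to 3 held 119 of 6469 (1.84%, 1.526 to 2.197%), 212 of 6187 (3.427%, 2.987 to 3.91%) and 372 of 6578 (5.655%, 5.109 to 6.241%). These intervals cover counting error only. The lowest NASH mice, WD+F+CCl4 1 and HFD+F+CCl4 3, lay within the interval of control 1.

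The mean share was 3.59% ± 1.49 (SD, n = 6) in NASH mice and 0.775% ± 0.425 (SD, n = 2) in control mice. The difference of 2.81 percentage points had an exact two-sided permutation p of 0.0714, adjusted over 4 comparisons to 0.267. The smallest p that 6 against 2 mice allow is 0.0357. It was reached with all kept cells as the denominator (adjusted 0.143). Thinning each cell to 4000 UMIs gave the same p, but left control 2 with 1 gated cell, which was not cycling, so its share of 0 rests on that cell. At 2000 UMIs, where control 2 kept 12 gated cells, the difference was 1.82 points with an exact permutation p of 0.0714. Leaving out cells with a lymphocyte UMI gave a difference of 2.02 points and leaving out granule gene cells 2.39 points, each with an exact permutation p of 0.107. Of all kept cells, members made up 0.0556% and 0.024% in the control mice, 2.49%, 2.62% and 1.33% in HFD+F+CCl4 mice and 0.992%, 2.15% and 3.18% in WD+F+CCl4 mice. These shares also carry the larger number of gated cells in the NASH libraries.

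The diet groups overlapped entirely. The share was 3.53% ± 1.35 (SD, n = 3) in HFD+F+CCl4 mice and 3.64% ± 1.92 (SD, n = 3) in WD+F+CCl4 mice. The exact permutation p of the difference of 0.109 percentage points was 1.0, where 3 against 3 mice cannot go below 0.1. The difference ranged from -0.899 without WD+F+CCl4 3 to 1.01 percentage points when 1 mouse at a time was left out. The summed level of Top2a and Mki67 over all gated cells, which needs no limit per cell, was 42.9 and 58.3 CPM in control mice, 164.1, 207.2 and 114.1 CPM in HFD+F+CCl4 mice and 74.2, 158.6 and 222 CPM in WD+F+CCl4 mice. All 6 NASH mice were above both control mice here too, but these are the UMIs the rule used, so the values restate the share and carry no further weight.

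**Figure D1:**
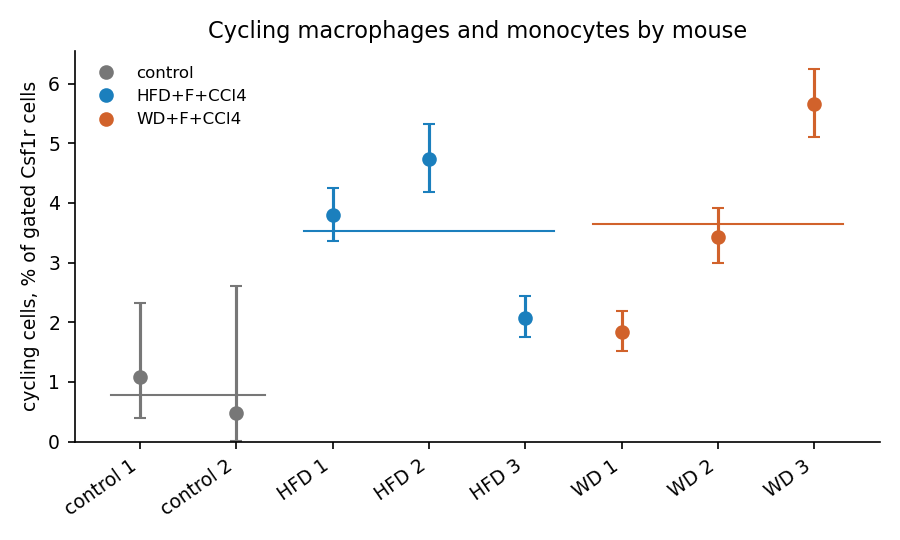
Share of gated Csf1r cells that were members, in percent (vertical axis), for each of the 8 mice (horizontal axis). Points are mice, bars are exact 95% binomial intervals and horizontal lines are group means. The 6 NASH mice lie between 1.84% and 5.655%, above both control mice, and the diet groups overlap.

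T cells were taken as cells with a Cd3e UMI and no UMI of Csf1r, called Cd3e cells here. Those within the same limits on Top2a and Mki67 made up 4.41% and 4.5% of Cd3e cells in the control mice. This was within the range of 2.84 to 10.9% in the NASH mice. There were 186 and 43 such T cells in the control mice, where the members numbered 6 and 1. The difference between the cell types was not tested.

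Many members carried macrophage genes beyond the level in T cells. The T cells were chosen without a Csf1r UMI, so their levels of macrophage genes can be too low as a background. Over all mice, 286 cells within the limits on Top2a, Mki67 and Csf1r had a Cd3e UMI and are in neither set. A UMI of C1qa, a subunit of complement C1q made by macrophages, was found in 73.6% of the NASH members (median 11118 UMIs) and in 33% of the 352 cycling T cells of the same mice (median 6699 UMIs), which do not make it. Thinned to 3000 UMIs, with 72 members and 29 T cells left out, the shares were 61.6% and 16.4%. For Trem2, the lipid receptor of lipid-associated macrophages, they were 46.7% and 4.95% (64.9% and 13.1% unthinned), and for Gpnmb, a glycoprotein of the same cells, 38.4% and 10.2% (54.3% and 23%). Clec4f, a lectin of Kupffer cells, was nearer to T cells in its share, at 6.31% and 3.72% (12.1% and 7.67%), as was Marco, at 9.42% and 6.19% (22.5% and 14.2%). Their pooled levels stood further apart, at 111.4 against 12.4 CPM for Clec4f and 422.8 against 24.5 CPM for Marco. Cd209a and Flt3, which mark type 2 dendritic cells and their precursors, were at 12.2% and 9.5% in members against 1.86% each in T cells (17.4% and 17.9% against 2.27% and 4.83% unthinned), so the rule also admitted cells with dendritic genes. Ly6c2, the surface protein of classical monocytes, was found in 20.8% of members after thinning (28.7% before), but T cells can make it too, at 19.2% (25.6%). Of 11 T cell genes none reached 10 CPM, with Trbc2 the most abundant at 5.36 CPM, and Cd3e was at 0 by the rule. Of these genes C1qa was the one found in a majority of the thinned members. A minority described below carried granule genes and had low levels of many macrophage genes, though not of Lyz2.

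The genes that chose the members, and Birc5 with them, stood as follows in the 6 NASH mice. Birc5 (chr11:117849251-117855743, plus strand, GRCm38) was at 309.2, 349.7 and 391.2 CPM in members of HFD+F+CCl4 1 to 3 and at 275.9, 269.2 and 318.5 CPM in WD+F+CCl4 1 to 3. In non-cycling cells it did not exceed 6.1 CPM, and the groups were far apart in each mouse. Csf1r, a gate in both groups of cells, was at 449 to 876 CPM in members and 993 to 1261 CPM in non-cycling cells. Per cell the order differed. The median Csf1r count of a member was 4, 6 and 4 UMIs in HFD+F+CCl4 and 6, 5 and 10 in WD+F+CCl4 mice. That of a non-cycling cell was 3, 5 and 5 UMIs and 5, 5 and 5 UMIs.

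For every other gene the members were set against the non-cycling cells of the same mouse, as a log2 ratio of CPM with 1 CPM added. Because the cells were split on Top2a and Mki67, these ratios are given with no test. CPM is a share of all UMIs and members were the deeper cells. A gene called lower in members thus had a lower share, which need not mean fewer UMIs per cell. Among 9047 genes over 10 CPM, 26.9% were higher in members in 6 of 6 NASH mice and 24.5% were lower in 6 of 6, with a median log2 ratio over all genes of 0.0066.

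All 39 S phase genes over 10 CPM were higher in members in 6 of 6 mice, with a median log2 ratio of 2.74. Pcna, the sliding clamp of DNA polymerase, was at 392.2, 415.2 and 330.7 CPM in members of HFD+F+CCl4 mice and at 287.4, 394.3 and 456 CPM in WD+F+CCl4 mice, against 98.1 to 135.5 CPM in non-cycling cells. Mcm7, a subunit of the replicative helicase, averaged 295.5 CPM against 28 CPM (log2 3.31). Rrm2, the small subunit of ribonucleotide reductase, averaged 172.9 CPM against 2.02 CPM (log2 5.88). Non-cycling cells thus kept a base level of Pcna and hardly any Rrm2.

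The mitotic genes stood further apart. All 51 G2/M genes were higher in 6 of 6 mice, with a median log2 ratio of 4.59. Hmgb2, a chromatin protein, was at 1685, 2462 and 3488 CPM in members of HFD+F+CCl4 mice and at 2599, 2018 and 1394 CPM in WD+F+CCl4 mice, against 196.3 to 338.6 CPM in non-cycling cells. Nusap1, which binds spindle microtubules, averaged 280.1 CPM against 1.51 CPM (log2 6.85). All 12 replication histones found were higher too (median log2 3.58). Hist1h2ap averaged 1927 CPM against 40.5 CPM, although histone genes of 1 cluster are near-identical and their counts may be split between copies.

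Among cyclins, kinases and inhibitors 16 of 24 were higher and 4 lower in 6 of 6 mice. Ccna2, the cyclin of S and G2 phase, averaged 188.2 CPM against 1.56 CPM (log2 6.36), and Foxm1, which drives mitotic genes, 52.8 CPM against 0.717 CPM. The D cyclins, which answer to growth factors, were closer in level. Ccnd1 averaged 200.4 CPM against 129.3 CPM and Ccnd3 225.3 CPM against 184.6 CPM, each higher in 5 of 6 mice, and Ccnd2 was higher in 3 of 6. The 4 lower genes were the inhibitors Cdkn1a (73.3 against 96.4 CPM) and Cdkn1b (71.7 against 106.9 CPM), Rb1 (53.8 against 77.1 CPM), the retinoblastoma protein that holds E2F in check, and Mdm2 (48 against 56.7 CPM). Of 24 genes of nucleotide synthesis, 21 were higher in 6 of 6 mice (median log2 0.98), with Tk1 and Dut at log2 4.12 and 3.65. Rrm2b, the p53-induced subunit of ribonucleotide reductase, was lower in 6 of 6, and Impdh1 and Nme2 were mixed.

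Outside the cell cycle lists, the 10 largest ratios among genes over 50 CPM that had 1 sign in every mouse belonged to Pclaf, the clamp-associated factor (528.5 against 3.75 CPM, log2 6.88), Prc1, which bundles the central spindle (6.44), the mitotic kinase Plk1 (6.05), Elane (5.95), the kinetochore protein Knl1 (5.88), the spindle protein Aspm (5.83), the kinesins Kif15 (5.69) and Kif4 (5.66), Sgo1, the guardian of cohesion (5.59), and Esco2, which acetylates cohesin (5.48). Elane, which encodes neutrophil elastase, is the exception in this list of mitotic genes and is taken up below.

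The promoters of these genes are shown because the S phase and G2/M genes were higher as whole lists and carried different letters upstream. The motifs searched on both strands were TTTGAA, the cell cycle homology region (CHR) bound by the MuvB complex, CCAAT, the box bound by NF-Y, and TTTCCCGC, TTTCGCGC, TTTGCCGC or TTTGGCGC, forms of the E2F site, of which 2 can overlap as reverse complements. RefSeq windows of 300 bases, 250 before and 50 after the start (GRCm38.p6), matched 45 of 51 G2/M genes and 31 of 40 S phase genes. CHR letters were in 32 of 50 G2/M windows (64%), in 17.1% of the 35 S phase windows and in 17.9% of the 32851 windows of all genes. E2F letters were in 34.3% of S phase windows, in 6% of G2/M windows and in 2.26% of all windows. CCAAT was in 74% and 71.4% of the G2/M and S phase windows and in 37.4% of all. A CHR together with CCAAT was found in 50% of G2/M windows, in 11.4% of S phase windows and in 6.95% of all windows. The lists were chosen as cell cycle genes, so the shares describe the lists and carry no test.

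The 120 bases before the start are printed for the 3 genes of each list with the most CPM in members among the genes used here that had a single window, read 5′ to 3′ on the strand of the gene, with any match to the motifs on either strand in capitals. In the window of Hmgb2 (chr8:57511723-57511842, plus strand) a TTTGAA begins 30 bases before the start and lies between a pair of CCAAT boxes. Tubb4b, a tubulin (chr2:25224703-25224822, minus strand), has 2 CCAAT boxes, and Birc5 (chr11:117849117-117849236, plus strand) has no match in this stretch, which says only that these letters are not in it.
Hmgb2: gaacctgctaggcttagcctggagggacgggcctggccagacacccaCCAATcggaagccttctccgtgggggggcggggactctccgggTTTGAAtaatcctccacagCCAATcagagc
Tubb4b: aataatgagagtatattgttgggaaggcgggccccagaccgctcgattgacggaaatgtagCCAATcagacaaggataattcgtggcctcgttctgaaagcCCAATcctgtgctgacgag
Birc5: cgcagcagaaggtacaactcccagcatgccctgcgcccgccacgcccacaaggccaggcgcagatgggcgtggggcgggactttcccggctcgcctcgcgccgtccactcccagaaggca

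Of the S phase genes, Mcm6, a helicase subunit (chr1:128359706-128359825, minus strand), has 3 E2F matches, a pair of them overlapping, and 2 CCAAT boxes in reverse. Pcna (chr2:132253181-132253300, minus strand) has 1 CCAAT in reverse, and Rrm1, the large subunit of ribonucleotide reductase (chr7:102441575-102441694, plus strand), has 2 CCAAT boxes.
Mcm6: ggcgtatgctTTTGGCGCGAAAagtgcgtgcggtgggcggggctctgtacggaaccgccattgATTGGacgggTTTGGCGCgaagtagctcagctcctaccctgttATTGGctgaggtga
Pcna: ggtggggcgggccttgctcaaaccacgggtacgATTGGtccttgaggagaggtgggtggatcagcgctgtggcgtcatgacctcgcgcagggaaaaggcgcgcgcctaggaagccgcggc
Rrm1: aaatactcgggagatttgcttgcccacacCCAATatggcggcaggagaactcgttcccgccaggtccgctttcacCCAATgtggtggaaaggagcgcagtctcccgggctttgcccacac

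The genes of macrophage identity were spread more evenly between members and non-cycling cells. C1qa averaged 1308 CPM in members and 1210 CPM in non-cycling cells, and was higher in members in 4 of 6 mice. Trem2 averaged 335 against 348.7 CPM, and Gpnmb 761.6 against 580.3 CPM. No gene of the 18 of the macrophage core was higher in 6 of 6 mice and 7 were lower, among them Lyz2, which encodes lysozyme (5186 against 9305 CPM), Apoe, the lipid carrier (11878 against 18805 CPM), and Cybb, the oxidase subunit (808.5 against 1615 CPM). Of the 18 genes of lipid-associated macrophages only Cd9 and Fabp4 were lower in 6 of 6, and none was higher.

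Genes of the patrolling monocyte were the lowest of the lists. In members 10 of 11 were lower in 6 of 6 mice, with a median log2 ratio of -1.64. Ace, an angiotensin-converting enzyme, was at 24.7, 7.31 and 29.7 CPM in members of HFD+F+CCl4 mice and at 67.4, 43.5 and 13.7 CPM in WD+F+CCl4 mice, against 131.7 to 247.7 CPM in non-cycling cells. Nr4a1, which these monocytes need to mature, averaged 52 against 249.6 CPM (log2 -2.61), and Treml4 averaged 52 against 175.3 CPM. For Ace and Treml4 no member value reached the lowest non-cycling value of any mouse. Nr4a1 was lower within each mouse, but members of HFD+F+CCl4 1 (142 CPM) lay above the non-cycling cells of HFD+F+CCl4 2 (127.8 CPM).

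Classical monocyte genes were mixed. Ly6c2 was the only 1 of 14 that was higher in 6 of 6 mice, at 364.7, 333.5 and 1225 CPM in members of HFD+F+CCl4 mice and 1169, 441 and 273 CPM in WD+F+CCl4 mice, against 56.1 to 659.3 CPM in non-cycling cells. In members without granule genes, described below, Ly6c2 averaged 99.9 CPM, within the range of non-cycling cells. Ccr2, the receptor that brings monocytes out of the marrow, was lower in 6 of 6 (485.6 against 650.2 CPM), as were Plac8, Hp, Clec4e, Ms4a4c and Ifitm6.

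Many immediate early, inflammatory, interferon-stimulated and CSF receptor axis genes were lower in members. This held in 6 of 6 mice for 14 of 16 immediate early genes (median log2 -0.97), which include Fos, Jun and Klf2. Klf2, a factor of quiescence, averaged 86.9 against 311.9 CPM. Of 9 inflammatory genes 6 were lower in 6 of 6, among them the cytokines Il1b (47.7 against 153.5 CPM) and Tnf (18.2 against 39.5 CPM). The interferon-stimulated genes were lower in 8 of 15 (median log2 -0.49), and 11 of 15 genes of the CSF receptor axis were lower, among them Csf3r (46.5 against 137.1 CPM) and Cebpb (311.1 against 834.4 CPM). The summed immediate early genes were highest in HFD+F+CCl4 1, at 3909 CPM in members and 7344 CPM in non-cycling cells, and lay between 957 and 1282 CPM in members of the other NASH mice.

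Of 9 heat shock genes 6 were higher in 6 of 6 mice, among them the chaperones Hsp90aa1 (577.6 against 258 CPM), Hspd1 (219.1 against 108.7 CPM) and Hspa8, while the stress-induced Hspa1a and Hspa1b were lower in 6 of 6. Of 13 glycolysis genes only Gapdh and Pgam1 were higher and Pfkl was lower. Of 12 sterol synthesis genes 2 were higher, among them Fdps, and 3 lower, among them Msmo1 and Insig1. Of the 10 MHC class II genes H2-DMb2 alone was higher in 6 of 6 (51.5 against 17.9 CPM), and H2-Aa averaged 3232 against 3098 CPM.

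Kupffer cell genes varied by mouse more than by cycling. Folr2 and Fcna were higher in members in 6 of 6 mice, and the other 8 of 10 were mixed. Marco, a scavenger receptor (chr1:120474538-120505024, minus strand), was at 92, 40.2 and 9.36 CPM in members of HFD+F+CCl4 mice and at 2.39, 42.6 and 1369 CPM in WD+F+CCl4 mice. Cd5l, an inhibitor of apoptosis secreted by macrophages, was at 396.4, 338.7, 39.1, 182.7, 113.8 and 1398 CPM in the same order. WD+F+CCl4 3, the mouse with the largest share of members, was far above the other mice for both genes. Its summed Kupffer genes were 4553 CPM in members and 1846 CPM in non-cycling cells.

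The 10 smallest ratios among genes over 50 CPM with 1 sign in every mouse were those of Retnlg (log2 -3.96), Ace (-2.73), Tppp3 (-2.66), Gm31814 (-2.62), Nr4a1 (-2.61), Saa3 (-2.55), Dusp16 (-2.53), Clec4e (-2.48), Smpdl3b (-2.32) and Adgre4 (-2.21). Retnlg is a gene of mature neutrophils and averaged 4.08 CPM in members against 83.9 CPM in non-cycling cells. Gm31814 is annotated as an intronic transcript on the strand of the gene that holds it, so its reads may be shared.

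**Figure D2:**
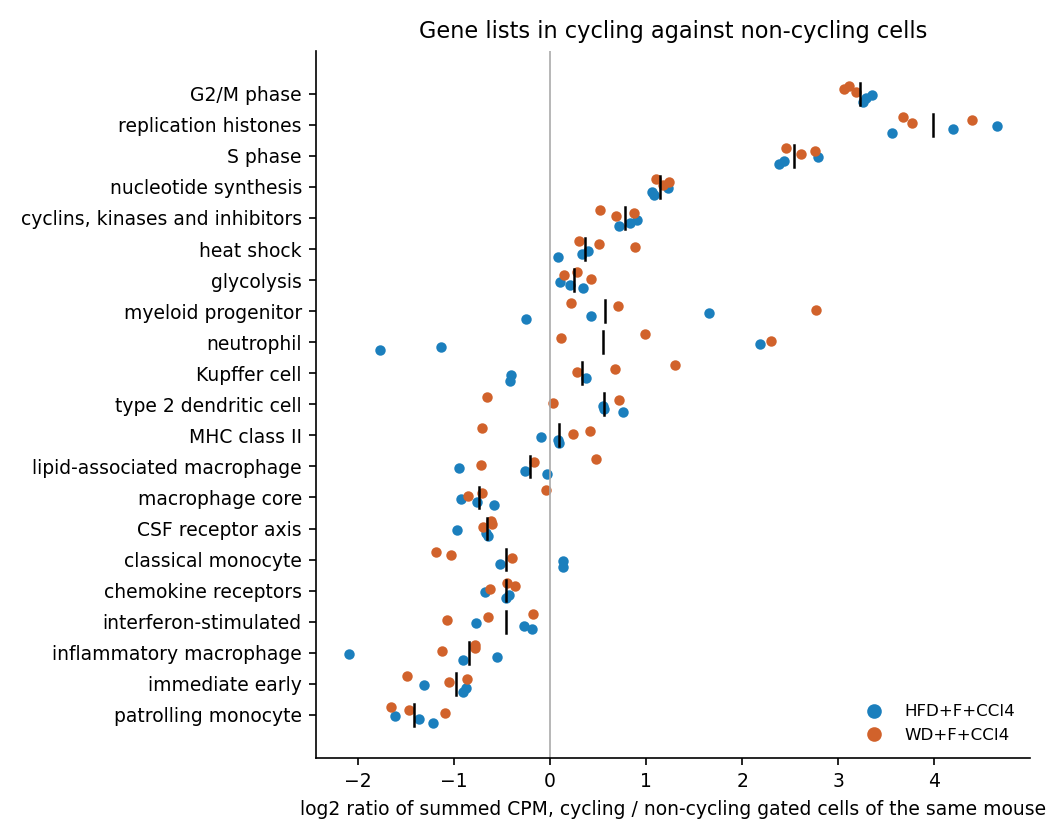
Log2 ratio of the summed CPM of each gene list in members against non-cycling gated cells of the same mouse (horizontal axis), with 1 point for each of the 6 NASH mice and a black line at the median. G2/M, histone and S phase lists lie above 2 in every mouse, patrolling monocyte and immediate early lists lie below 0 in every mouse, and the neutrophil and myeloid progenitor lists spread widely between mice.

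Genes of the primary granules of neutrophil and monocyte progenitors set a minority of the members apart. These enzymes (Mpo, Elane, Prtn3 and Ctsg) are made in the promyelocyte stage, which in adults lies in the bone marrow. Elane (chr10:79886247-79888215, plus strand) was at 40.1, 117.9 and 1112 CPM in members of HFD+F+CCl4 1 to 3 and at 1064, 151.8 and 152.4 CPM in WD+F+CCl4 1 to 3, and did not exceed 2.62 CPM in non-cycling cells of any NASH mouse. Of the 9 myeloid progenitor genes over 10 CPM 5 were higher in 6 of 6 mice: Mpo, Elane, Prtn3, Ctsg and Ms4a3. HFD+F+CCl4 3 and WD+F+CCl4 1 were the high libraries.

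After these values were seen, members with at least 3 UMIs of the 4 granule genes together were counted, and the counts carry no test. They numbered 167 of 1388 NASH members (12.03%) and 198 of 34503 non-cycling cells (0.5739%). By mouse they were 31, 18 and 38 members in HFD+F+CCl4 1 to 3 (11.2%, 6.79% and 26.8%) and 40, 17 and 23 members in WD+F+CCl4 1 to 3 (33.6%, 8.02% and 6.18%). The share was higher in members than in non-cycling cells in 6 of 6 mice, and 0 of the 7 control members were of this kind. So few control members cannot show whether such cells are absent from control livers. Free RNA gives UMIs to cells that do not make a transcript, and 4 of 4779 Cd3e cells of the NASH mice (0.0837%, median 2531 UMIs) and 1 of 352 cycling T cells (median 6699 UMIs) reached 3 granule UMIs. Of the 167 members 123 had at least 10 granule UMIs, 12 had 3, and another 10 members lay just outside with 2. Of the 167, 32 were among the cells with the highest doublet scores.

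These granule gene members differed from the other members in many genes of identity. They were deeper (median 17060 against 10541 UMIs), and their median of Csf1r UMIs, 2.5 to 5 by mouse, was below that of the other members (4 to 11) in 5 of 6 mice and equal to it in WD+F+CCl4 2. Ly6c2 averaged 2703 ± 344.7 CPM (SD, n = 6 mice) against 99.9 ± 70.8 CPM in members with neither granule genes nor the later granule genes Camp, Ngp and Ltf. Ms4a3, which marks granulocyte and monocyte progenitors, averaged 253.4 against 0.174 CPM, the ficolin Fcnb 282 against 3.05 CPM, and F13a1, factor XIII of monocytes, 896.2 against 93.3 CPM. Each was higher in 6 of 6 mice. I830127L07Rik (515.1 against 12.7 CPM) is annotated as a pseudogene beside Ly6c2 on chromosome 15, and its reads may be shared with that family.

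Many macrophage genes were low in them, but not all. C1qa averaged 160.5 against 1592 CPM, Gpnmb 50.2 against 918.4 CPM, the mannose receptor Mrc1 14.8 against 181.8 CPM and Cd209a 1.33 against 98.5 CPM. H2-Aa averaged 343.7 against 4172 CPM. Lyz2 averaged 7796 against 4556 CPM and was higher in 5 of 6 mice. Itgam averaged 185.1 against 170.7 CPM, higher in 4 of 6, and Cybb 695.3 against 838.7 CPM, lower in 4 of 6. Among cell cycle genes Birc5 was at 303.3 against 320.4 CPM and higher in 2 of 6 mice. The cell cycle genes went both ways. Ccna2 (218.7 against 181.6 CPM), Hmgb2 (3726 against 1882 CPM), Dut (268.5 against 138.4 CPM) and E2f2 (103.4 against 47.2 CPM) were higher in 6 of 6. Tk1 (91.4 against 175.7 CPM), Cenpe (148.9 against 216.8 CPM), Kif23 (114.8 against 174.6 CPM) and Kif20b (97.2 against 125.9 CPM) were among those lower in 6 of 6. The D cyclins differed in kind: Ccnd1 averaged 17.5 against 254.9 CPM and was lower in 6 of 6 mice, while Ccnd3 averaged 381 against 188.2 CPM. Because the granule genes chose these cells and Ly6c2 and C1qa were read in the same cells, the contrast is a description.

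A smaller set carried the genes of secondary granules, which are made at the later myelocyte stage. At least 3 UMIs of Camp, Ngp and Ltf were found in 25 NASH members (1.801%), 9 of them in HFD+F+CCl4 3, 12 in WD+F+CCl4 1, 1 in WD+F+CCl4 2 and 3 in WD+F+CCl4 3. Of the 25, 13 also had the primary granule genes. In the 12 members with secondary granule genes alone, pooled over mice, Elane and Mpo were at 0, Camp was at 24469 CPM and S100a8 at 119540 CPM. The neutrophil list summed to 438.4, 860.2 and 20941 CPM in members of HFD+F+CCl4 mice and to 34542, 4325 and 3147 CPM in WD+F+CCl4 mice, with S100a8 its most abundant gene. HFD+F+CCl4 3 and WD+F+CCl4 1 were again the high libraries, and these are the mice with the lowest share of members among gated cells.

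**Figure D3:**
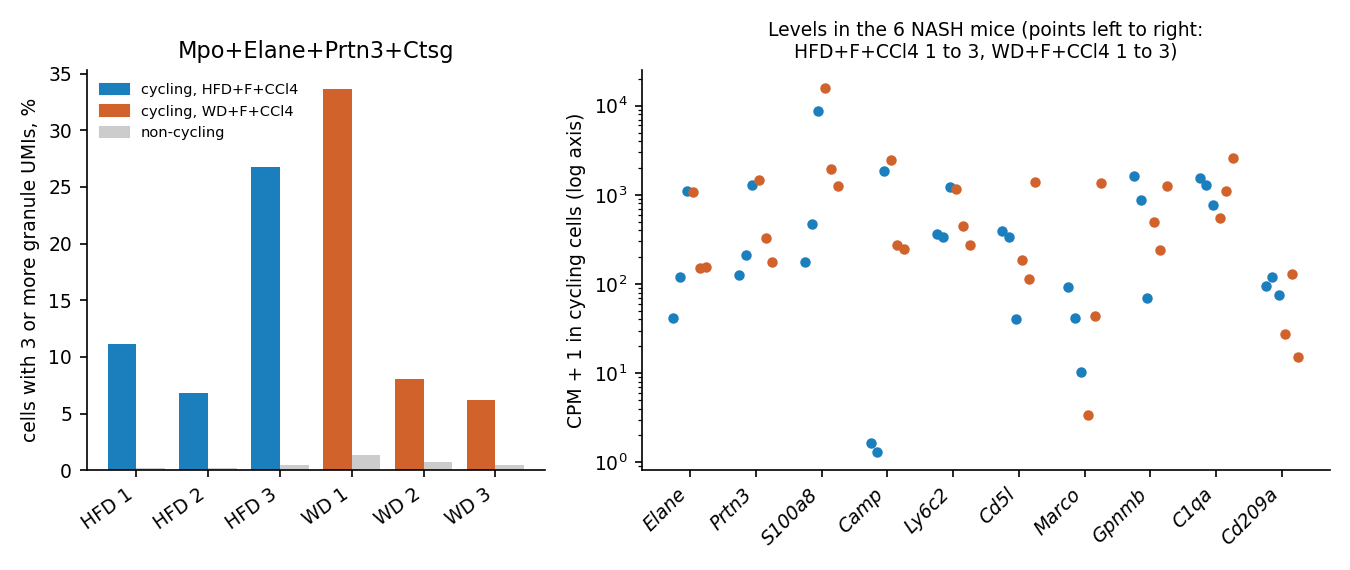
Left, percent of members (coloured bars) and of non-cycling gated cells (grey bars) with at least 3 UMIs of Mpo, Elane, Prtn3 and Ctsg together, for each NASH mouse; right, CPM plus 1 on a log axis of 10 genes in the members of each mouse. HFD+F+CCl4 3 (26.76%) and WD+F+CCl4 1 (33.61%) have the highest bars, and Elane, S100a8 and Camp are highest in the same mice while Marco and Cd5l are highest in WD+F+CCl4 3.

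The share of dividing cells was then compared between states of the gated cells, set by genes the rule did not use. Each cell was thinned to 3000 UMIs, a cell with at least 2 UMIs of Top2a and Mki67 counted as cycling, and the state was compared with the other gated cells of the same mouse. Thinning left out 21.7 to 39.8% of the gated cells of a NASH mouse, 26.5% in control 1 and 96.2% in control 2, so control 2 had too few cells for any state. Tests were exact two-sided sign-flip permutation tests over mice with at least 50 cells of the state, adjusted over 6 states, and none passed 0.05 after adjustment. As a background, the share of cells in each state was taken in the 323 cycling T cells of the NASH mice with 3000 UMIs, beside that in the 27342 gated cells. It was 1.55% against 38.4% for Trem2 and Gpnmb, 4.33% against 32.6% for Cd300e and Treml4 and 0.929% against 2.19% for Clec4f, Vsig4 and Timd4. For Cd209a, Flt3 and Zbtb46 it was 4.64% against 8.66%, so many cells of that state can be background. For Cxcl9 and Cxcl10 it was 7.12% against 8.34%, and that state is hardly set apart from background. For Ly6c2 it was 12.4% against 17.3%, and 29.4% in all Cd3e cells, but T cells can make Ly6c2, so this is no background. Without thinning the cycling T cell shares (median 6699 UMIs) were 7.95%, 9.09%, 2.56%, 9.38%, 9.66% and 16.2%. The gated shares (median 4797 UMIs) were then 40.5%, 47.7%, 2.89%, 9.39%, 10.1% and 18.1% in the same order.

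Cells with a UMI of Cd209a, Flt3 or Zbtb46, genes of type 2 dendritic cells, had the higher cycling share in 6 of 7 mice. In the state 13.7%, 12.9% and 9.43% were cycling in HFD+F+CCl4 1 to 3, compared with 3.31%, 9.58% and 3.09% in WD+F+CCl4 1 to 3 and 3.49% in control 1. In the other cells it was 4.78%, 4.85%, 2.65%, 1.55%, 3.63%, 6.56% and 0.309% in the same order. WD+F+CCl4 3 was the exception. The control 1 shares rest on 3 cycling cells of 86 in the state and 1 of 324 others. The mean difference was 4.46 percentage points ± 4.33 (SD, n = 7; exact permutation p = 0.0625, adjusted 0.125, smallest possible p 0.0156). With raw counts and the rule of membership the difference was 6.78 points (adjusted permutation p = 0.0469), but deeper cells more readily pass both the limit of the state and that of membership, and without thinning the state was as common in cycling T cells (9.38%) as in gated cells (9.39%), so this p is given no weight.

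Cells with a UMI of Cd300e or Treml4, genes of patrolling monocytes, had the lower share in all 6 NASH mice and the higher in control 1. The control 1 value rests on 1 cycling cell of 53 in the state and 3 of 357 others. In NASH mice the state held 0.678 to 4.22% cycling cells and the other cells 2.01 to 7.71%. The mean difference was -2.25 percentage points ± 1.79 (SD, n = 7; exact permutation p = 0.0313, adjusted 0.125). With raw counts and the rule of membership, which change both the depth and the limit on Top2a and Mki67, it was -1.11 points with an adjusted permutation p of 0.0469.

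Cells with at least 2 UMIs of Ly6c2 held 4.77% ± 4.8 cycling cells against 4.15% ± 2.09 in the others (SD, n = 7; exact permutation p = 0.797, adjusted 0.956), higher in 3 of 7 mice. This result turned when the cells with granule gene UMIs were left out, an alternative added after the data were seen. The Ly6c2 cells then held 1.28% against 4.09%, a difference of -2.81 points that was negative in 7 of 7 mice. As granule genes were more frequent in cycling cells, a lower share was built in and no p is given. Cycling Ly6c2 cells fell from 27 to 5 in HFD+F+CCl4 1 and from 31 to 5 in WD+F+CCl4 1. All Ly6c2 cells fell less steeply in these mice, from 186 to 144 and from 1869 to 1735. The difference was also negative, at -0.817 points, without HFD+F+CCl4 1 alone, where 14.5% of the Ly6c2 cells were cycling.

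Cells with at least 2 UMIs of Trem2 and Gpnmb held 4.57% ± 2.94 cycling cells against 4.54% ± 1.86 in the others (SD, n = 6), a difference of 0.0287 points ± 2.86 (SD) with an exact permutation p of 1.0. The mean hides a split, because 5 of 6 mice had the lower share in the state and WD+F+CCl4 3 had 9.78% against 4.13%. Without that mouse the difference was -1.095 points. With raw counts and the rule of membership it was 2.69 points (exact permutation p = 0.0313, the smallest possible, adjusted 0.0625). In WD+F+CCl4 3 such cells made up 61% of the cycling cells, against 14.8 to 47.4% in the other NASH mice. Cells with at least 2 UMIs of Clec4f, Vsig4 and Timd4, genes of Kupffer cells, were numerous enough in 3 mice only, where 4.47%, 14.6% and 13.2% were cycling against 5.77%, 5.62% and 6% of the others (exact permutation p = 0.5, smallest possible 0.25). Cells with a UMI of Cxcl9 or Cxcl10, chemokines induced by interferon gamma, held 3.01% ± 2.23 against 4.13% ± 2.13 (SD, n = 7; exact permutation p = 0.0625, adjusted 0.125), and the sign of the difference depended on the depth used.

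**Figure D4:**
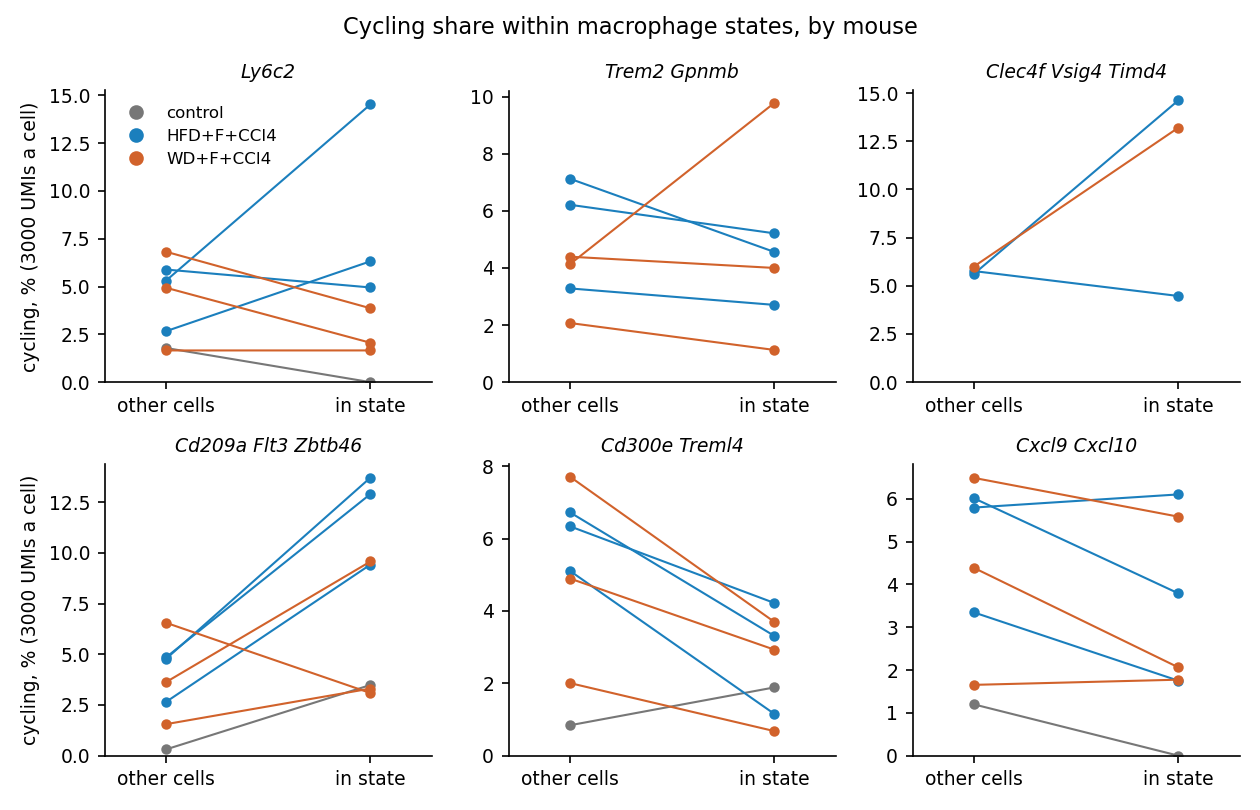
Cycling share in percent after thinning each cell to 3000 UMIs (vertical axis), in cells of a state and in the other gated cells of the same mouse, joined by a line for each mouse; the panels have different scales. Lines rise to the right in 6 of 7 mice for Cd209a, Flt3 and Zbtb46 and fall in the 6 NASH mice for Cd300e and Treml4, and no state passed after adjustment.

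Members were also divided by whether S phase or G2/M genes had more UMIs in a cell thinned to 3000 UMIs. S phase genes led in 330 of 1322 members, and 88 of the 1322 lay within 1 UMI of a tie. For gene levels all members were split in the same way on unthinned counts. Top2a and Mki67, which the rule used, averaged 531.7 and 303 CPM in S-leading members of that split. In G2/M-leading members they averaged 1197 and 788.6 CPM, so the limits on these genes can lower the S phase share. In the thinned cells the S-leading share was 17.4%, 25.9% and 19.4% in HFD+F+CCl4 mice and 25.4%, 38.1% and 24% in WD+F+CCl4 mice. The groups overlapped, with means of 20.9% ± 4.48 and 29.2% ± 7.76 (SD, n = 3 each) and a difference of 8.3 percentage points (exact permutation p = 0.3, smallest possible 0.1). In cycling T cells of the 6 NASH mice the share was 30.3% ± 2.44 (SD, n = 6), against 25% ± 7.26 in members. Members were lower in 5 of 6 mice, with a difference of -5.28 points (exact sign-flip permutation p = 0.219, adjusted 0.3). Without granule gene cells the difference was -2.14 points (exact permutation p = 0.594). At 2000 UMIs it turned to 0.887 points, and without thinning it was -4.71 points. The difference between diets was 5.71 points without thinning and 3.84 points without WD+F+CCl4 2.

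Other genes of S-leading and G2/M-leading members, split on unthinned counts, are given as a description. Ccnd1 averaged 441.6 CPM in S-leading against 134.5 CPM in G2/M-leading members and was higher in 6 of 6 mice, E2f1 112.2 against 29.6 CPM, and the inhibitor Cdkn2d 30.7 against 124.2 CPM. Ly6c2 averaged 193 against 748.8 CPM and was lower in S-leading members in 5 of 6 mice. Prtn3 averaged 88.6 against 722.3 CPM and was lower in 6 of 6.

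No gene in members passed the test of WD+F+CCl4 against HFD+F+CCl4 mice. The UMIs of all members of a mouse were summed (1817300 to 5026049 per mouse), and edgeR's quasi-likelihood test with Benjamini-Hochberg adjustment called 0% of 10872 genes, with 440 at an unadjusted p under 0.05. DESeq2 called 11. In non-cycling cells, where the fit also held the 2 control mice, edgeR called 0% of 17180 genes (670 at an unadjusted p under 0.05, and 17 by DESeq2), and in 0% of 15577 genes did the diet difference itself differ between members and non-cycling cells (654 and 12).

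The 5 genes with the smallest p in members did not pass. Olfr655, an olfactory receptor gene (chr7:104595301-104601779, minus strand), was at 2.24, 1.52 and 1.1 CPM in HFD+F+CCl4 mice and at 28.2, 31.3 and 15.7 CPM in WD+F+CCl4 mice, without overlap. Its log2 difference was 3.89 ± 0.40 (SE), with an edgeR adjusted p of 0.155 that ranged from 6.375e-08 to 0.9998 over the alternatives. In non-cycling cells it was at 1.04 to 1.26 CPM and at 3.03, 1.23 and 2 CPM. A UMI of it was found in 2.31% of the NASH members.

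Nme2, a nucleoside diphosphate kinase, was at 42, 35.3 and 27.5 CPM in HFD+F+CCl4 and 117.6, 78.4 and 74.2 CPM in WD+F+CCl4 members (log2 1.40 ± 0.24, edgeR, adjusted p = 0.999). Its gene overlaps the annotated Gm20390 on the same strand, so its reads may be divided between them. Saa3, an acute phase gene, had a log2 difference of 2.15, Itgae, an integrin subunit, of -2.81, and Fads2, a fatty acid desaturase, of -1.87, each with an edgeR adjusted p of 0.999. With DESeq2 Nme2 (adjusted p = 0.00557), Saa3 (0.0018) and Fads2 (0.0354) passed, and the same genes passed in edgeR with no filter on low counts, while Itgae passed in no alternative. Fads2 was at 18.9, 20.7 and 17.1 CPM in HFD+F+CCl4 members and at 2.87, 8.16 and 4.38 CPM in WD+F+CCl4 members.

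By list, WD+F+CCl4 members had higher values without overlap between the groups in 6 of 15 interferon-stimulated genes and in 6 of 26 genes of nucleotide synthesis, where 4.18% of all 10872 genes did so. Irf7, the factor that amplifies the interferon response, was at 104.5, 87.1 and 44 CPM in HFD+F+CCl4 and at 234.8, 203.1 and 156.4 CPM in WD+F+CCl4 members. The median log2 difference was 0.58 for the interferon list and 0.19 for nucleotide synthesis, against 0.0042 over all genes. Neither was particular to members, as the summed lists did not overlap between diets in non-cycling cells either. There the interferon list was at 1839, 2537 and 1838 CPM in HFD+F+CCl4 and 6179, 4146 and 2625 CPM in WD+F+CCl4 mice. Nucleotide synthesis was at 652.7, 705.3 and 667.1 CPM and at 787.5, 754.9 and 724.3 CPM. In the other direction 9 of 51 G2/M genes were lower without overlap, with a median of -0.13, where 4.97% of all genes did so. The MHC class II list had a median of -0.75 with 2 of 10 genes lower without overlap, and the type 2 dendritic cell list a median of -0.93 with 2 of 12. None of these genes passed the test.

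In the difference of the diet change between members and non-cycling cells, the smallest p was that of Marco (log2 2.74 ± 0.34, edgeR, adjusted p = 0.153). In WD+F+CCl4 3 it was at 1369 CPM in members and 238.3 CPM in non-cycling cells, and without that mouse the log2 difference was 2.54. Marco passed with DESeq2 (adjusted p = 6.133e-07), with no filter on low counts (edgeR, adjusted p = 1.675e-33), without HFD+F+CCl4 2 (edgeR, adjusted p = 0.03) and without WD+F+CCl4 1 (edgeR, adjusted p = 0.00586). I830127L07Rik (-1.72), S100a10 (-0.80), H2-M2 (2.30) and Olfr655 (3.03) followed with an edgeR adjusted p of 0.463 each. All 4 passed with no filter on low counts, I830127L07Rik and S100a10 also with DESeq2, and I830127L07Rik without WD+F+CCl4 1 (edgeR, adjusted p = 0.03). In non-cycling cells Nme2 (log2 1.32), Idi1 (-1.58), Mug2 (-4.59) and Spon1 (1.47) were among the genes with the smallest p, each with an edgeR adjusted p of 0.9999.

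Genes of other liver cells were present in members at levels that differed between libraries. The hepatocyte list, with Alb its most abundant gene, summed to 516.2, 1139 and 94.1 CPM in members of HFD+F+CCl4 mice and to 45.9, 147.8 and 240.7 CPM in WD+F+CCl4 mice. The stellate cell list, led by Col3a1, summed to 853.7, 456 and 13.8 CPM and to 3.35, 116 and 11.9 CPM. The B cell list reached 1321 CPM in HFD+F+CCl4 2, of which Igkc was 1079 CPM, and no more than 189.7 CPM elsewhere. HFD+F+CCl4 1 and 2 thus carried the most RNA of hepatocytes and stellate cells. No gene of the hepatocyte, stellate and B cell lists was at 0 over all members except Cd79a, which the rule set to 0. Of the NK cell list 2 genes passed 10 CPM, of the erythroid and cholangiocyte lists 4 each and of the collagens 6, and none was higher or lower in 6 of 6 mice. Endothelial genes were lower in 2 of 10 (24.5% of all genes were), chemokine receptors in 4 of 6 and plasmacytoid dendritic cell genes in 2 of 3, and 2 of 6 type 1 dendritic cell genes (Cadm1 and Cd24a) were higher. The part of RNA of other cells in the diet values was not tested.

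The 7 control members were too few for any gene test and are given pooled, with 71811 UMIs in all. They had 42 UMIs of Cd209a (584.9 CPM, exact 95% Poisson interval 421.5 to 790.6), 47 of Mgl2 and 7 of Flt3. The intervals here are of the pooled UMIs and cover counting error only, not the spread between cells or mice. C1qa, Trem2, Gpnmb, Clec4f and Ly6c2 were at 0 UMIs, which with an exact 95% interval allows up to 51.4 CPM. Monocyte and macrophage genes were present with Lyz2 (76 UMIs), Plac8 (69), Apoe (60), Ccr2 (20), Cybb (14), Cd68 (10) and Adgre1 (4). T cell genes were present too, with Trbc1 (18 UMIs), Trbc2 (11), Lck (8), Cd3d and Cd3g (4 each, 55.7 CPM) and Trac (2), as was Klrd1 (26 UMIs), a lectin-like receptor of NK cells that is also on the type 2 dendritic cell list used here. The control members thus held genes of monocytes, type 2 dendritic cells and T cells together, and the part of doublets or of RNA from T cells in them was not tested.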

How the data were processed

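UMI counts of single liver cells from 8 mice were read from 1 matrix of raw counts per gene and barcode, which the authors deposited after demultiplexing (bcl2fastq 2.20 in the submitters' processing notes) and Cell Ranger counting against GRCm38, with barcodes not filtered for quality. The file header and the study's methods name different Cell Ranger versions. A mouse was 1 library and the replicate, taken from the barcode suffix. Members and gene lists were chosen with earlier results of these data known. Counts were summed by mouse over members or non-cycling cells (CPM over all genes), and diets were compared with edgeR 4.0.16 (quasi-likelihood, TMM, filterByExpr with a minimum count of 10, adjusted p under 0.05), with DESeq2 1.42.0 as an alternative. Shares were compared by exact permutation with SciPy 1.17.1 and states after thinning to 3000 UMIs. Intervals are exact 95% binomial intervals for shares and exact 95% Poisson intervals for the pooled UMIs of the control members. Doublets were scored with Scrublet in Scanpy 1.11.5 (highest 0.8% per 1000 cells of a library), kept in the main results and left out in an alternative. Named genes were 33 lists described by counts and a few examples each, the 10 largest and 10 smallest member ratios outside the cell cycle lists, the 15 largest and smallest ratios of granule gene members, and the 5 smallest p of each fit. Some named genes are not reported here. The fits were tested on simulated data. Depth was 6135827 to 64855024 UMIs per library.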

Additional observations from a re-analysis of the deposited data

How the results depend on the processing

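No call between groups passed the adjusted threshold in the main tests. The difference in cycling share of WD+F+CCl4 from HFD+F+CCl4 mice turned negative with over 1000 genes per cell (-0.0149 percentage points), with 4000 UMIs (-0.362) and over all kept cells (-0.0392), and ranged from -0.899 to 1.01 with 1 mouse left out, being -0.623 without HFD+F+CCl4 3 and -0.899 without WD+F+CCl4 3. With 1 mouse left out, the difference from control ranged from 2.40 to 3.16 points for NASH, 2.16 to 3.49 for HFD+F+CCl4 and 1.86 to 3.77 for WD+F+CCl4. For states the ranges were -0.817 to 1.21 (Ly6c2, lowest without HFD+F+CCl4 1), -1.095 to 0.547 (Trem2 and Gpnmb, lowest without WD+F+CCl4 3), 3.71 to 5.78 (Cd209a, Flt3 and Zbtb46), -2.80 to -1.96 (Cd300e and Treml4) and -1.35 to -0.915 (Cxcl9 and Cxcl10). Leaving out granule gene cells, chosen after seeing the data, gave -2.81 for Ly6c2. Raw counts with the rule of membership gave 2.69 for Trem2 and Gpnmb, 6.78 for Cd209a, Flt3 and Zbtb46, -1.11 for Cd300e and Treml4 and 1.46 for Cxcl9 and Cxcl10, which was 0.0733 at 2000 UMIs. The S phase share against T cells was 0.887 points at 2000 UMIs and ranged from -8.36 to -3.14 with 1 mouse left out, and that between diets from 3.84 to 10.9. The causes were not tested.

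For genes between diets, DESeq2 called 11 in members, 17 in non-cycling cells and 12 for the difference of the diet change, and no filter on low counts called 85 in members and 187 for that difference. With 1 mouse left out the counts were 0 to 1 in members (1 without WD+F+CCl4 3), 0 to 0 in non-cycling cells and 0 to 5 for the difference (4 without HFD+F+CCl4 2, 1 without HFD+F+CCl4 3 and 5 without WD+F+CCl4 1). Mice with the same replicate number did not deviate together (correlations of -0.363, -0.0378 and -0.491), and the replicate block called 0 genes in members and 0 in non-cycling cells, with 204 and 300 at an unadjusted p under 0.05 in edgeR. With fewer than 10 members in each control mouse, gene fits and phase comparisons against control were not run, and leaving out a mouse gave no value for the Clec4f, Vsig4 and Timd4 state.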
